A study of Arabidopsis thaliana with 8 samples.

Results

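The chloroplast genes are the 111 rows of the count table, of 37336 rows in all, whose locus begins with ATCG and whose counts over the 24 libraries add up to at least 50. The table holds 133 ATCG rows. The 22 left out held 55 counts together, and 13 of them held none. The highest rows left out were both copies of ycf2, with 21 and 18 counts, and the lowest rows kept were trnD with 87 counts, trnL (ATCG01030) with 96, ndhB (ATCG00890) with 108 and trnQ with 115. Of the members, 107 had counts enough for testing, and trnQ, trnD, trnL (ATCG01030) and ndhB (ATCG00890) did not. By product, the members comprise 12 ndh, 5 psa, 15 psb, 11 rpl, 15 rps, 4 rpo, 6 atp and 6 pet genes, 10 further protein-coding genes, 23 tRNA genes and 4 rRNA genes.

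The chloroplast genome is a small circular genome, left over from the cyanobacterial ancestor of the organelle, that keeps genes for photosynthesis and for its own gene expression. The psb genes encode photosystem II, the pet genes the cytochrome b6f complex, the psa genes photosystem I, the atp genes the ATP synthase, and the ndh genes an NADH dehydrogenase-like complex of cyclic electron flow. The rpl and rps genes encode ribosomal proteins, and the rpo genes encode the core of a bacterial-type RNA polymerase that works beside a phage-type polymerase encoded in the nucleus. Many of these genes lie in clusters that are transcribed together and then cut, and their transcripts carry no cap. The PAT1 proteins, which the mutations remove or alter, are known as activators of decapping of mRNAs in the cytosol.

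The study sequenced RNA of above-ground tissue from Arabidopsis thaliana plants that carried mutations in the 3 PAT1-family genes. The genotypes were pat1-1summ2-8, path1-4summ2-8, path2-1summ2-8, pat1-1path1-4summ2-8, pat1-1path2-1summ2-8, path1-4path2-1summ2-8, the triple pat1-1path1-4path2-1summ2-8, and summ2-8 alone, which served as the control. All 8 genotypes thus carried summ2-8, an allele of the immune receptor gene SUMM2, and mutants are named below without it. Each genotype had 3 libraries from biological triplicates, and the labels do not say whether a library came from 1 plant or a pool. Plants were 6 weeks old and grew at 21 °C with 8 h light and 16 h dark, in pots of 9 × 9 cm or 4 × 5 cm. Which genotype had which pot is not given, so pot size and genotype cannot be told apart. Replicates are numbered in the order of the table's columns.

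Totals per library ran between 14187145 and 39180748 counts. The chloroplast genes made up 0.888% to 2.96% of a library. Within a genotype, log2 values of libraries correlated across genes at r = 0.984 to 0.996, where genes are not independent replicates. The tissue label was checked with marker genes. The leaf mesophyll genes were at high levels, with RBCS1A, a Rubisco small subunit gene, at 28609 ± 3233 CPM, meaning counts scaled to library size with TMM factors, in the triple mutant and 20442 ± 2747 CPM in the control (SD, n = 3 each). The floral genes AP3 and SEP3 were too low to be tested. Values for the floral genes AG and PI, the meristem gene STM and the root gene NAI2 are not given here. The check thus covers only part of the markers chosen. The root gene PYK10 was at 90.5 ± 13.4 CPM in the triple mutant and 26.7 ± 12.3 CPM in the control, with a log2 fold change of 1.76 ± 0.328 (adjusted p = 0.000177) in edgeR's quasi-likelihood test. The part of PYK10-expressing tissue in the chloroplast values was not tested.

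Levels between genes are given as deposited TPM, which divides by the length of the gene model. Here those lengths are coding lengths, so a short coding region within a long transcript gets a high TPM. The members held 9901368 counts, of which atpB, the catalytic subunit of the ATP synthase, took 30.8%. The 5 and the 10 members with the most counts took 60.4% and 78.0%. The highest mean TPM over the 24 libraries was that of psbM, a small photosystem II subunit, at 8144 TPM on a coding region of 105 bases, with a range of 5752 to 11691 TPM. The ribosomal protein gene rpl32 followed with 7236 TPM, then atpB with 4908 TPM and atpE, another ATP synthase subunit, with 4528 TPM. Well-known leaf transcripts were far lower. The photosystem II reaction centre gene psbA had 57.1 TPM, and rbcL, the Rubisco large subunit, had 17.5 TPM. The photosystem I core genes psaA and psaB had 6.22 and 7.59 TPM.

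By complex, the median member had 103 TPM among rps genes, 94.0 TPM among psb genes, 86.0 TPM among rpl genes, 38.1 TPM among ndh genes, 35.7 TPM among atp genes and 27.5 TPM among tRNA genes. The pet, psa and rpo genes had medians of 23.3, 18.1 and 13.6 TPM. The rRNA genes, which give the most abundant RNA of the organelle, were at 1.10 to 3.14 TPM. The labels name total RNA, and no source used here says how mRNA was enriched. The levels therefore describe these libraries, and their relation to chloroplast RNA in the plant was not tested.

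**Figure D1:**
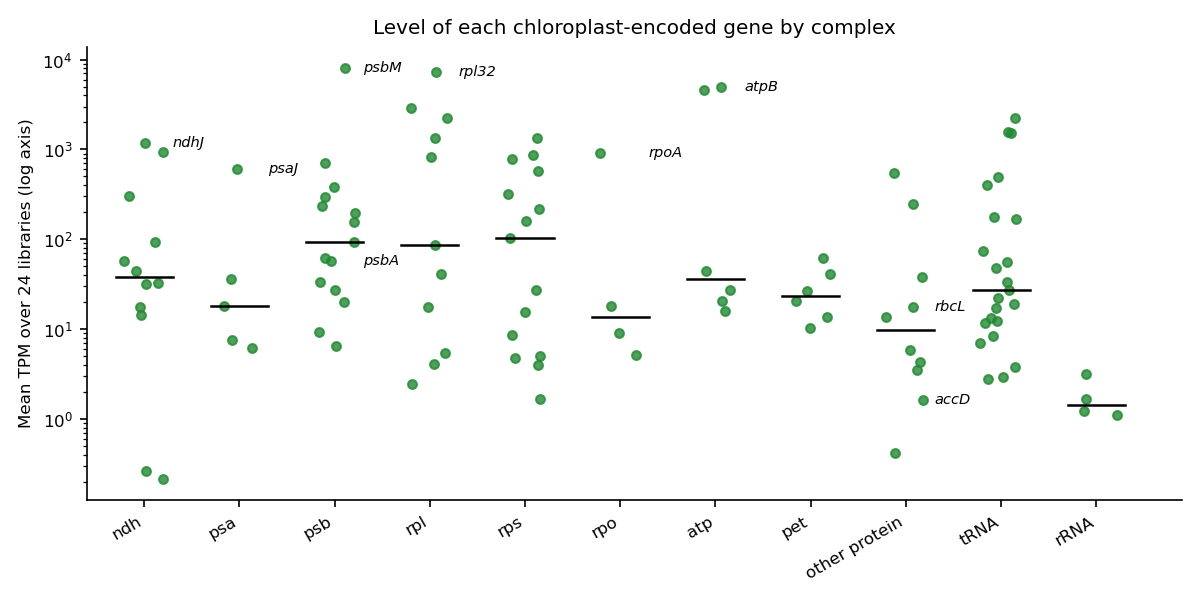
Mean TPM over the 24 libraries for each chloroplast gene (points, log axis), by complex, with the line at the median of the complex. psbM and rpl32 stand at the top with 8144 and 7236 TPM, and the rRNA genes lie between 1.10 and 3.14 TPM.

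Where chloroplast genes overlap or stand in a repeat, counts cannot be assigned to 1 gene with certainty, because no source used here gives the counting rule. Of the protein-coding and rRNA members, 17 have a symbol that the table gives to more than 1 locus, with tRNA genes not counted. Most of these genes lie in the inverted repeat of the genome, and they also include ycf1, with a full and a partial locus, and rps12, whose exons have separate loci. The overlaps below come from the RefSeq plastid genome of TAIR10.1, with the shared bases in capitals, on the strand of the genes. They are shown as examples of members that share bases, so that a read there fits both genes.
psbD and psbC at Pltd:33700-33792, plus strand: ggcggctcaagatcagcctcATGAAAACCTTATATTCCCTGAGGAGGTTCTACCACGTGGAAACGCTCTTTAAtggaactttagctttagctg
atpB and atpE at Pltd:52640-52683, minus strand: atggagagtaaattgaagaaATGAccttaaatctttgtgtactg
rps3 and rpl22 at Pltd:83447-83502, minus strand: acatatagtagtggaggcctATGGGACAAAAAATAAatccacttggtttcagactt
The shared stretch is 53 bases long in psbD and psbC, 4 bases in atpB and atpE and 16 bases in rps3 and rpl22. The next 3 stretches show, in capitals, the longest run of A in the coding sequence of a gene rich in such runs, rpoA, of the gene with the most counts, atpB, and of psbA.
rpoA at Pltd:78075-78128, minus strand: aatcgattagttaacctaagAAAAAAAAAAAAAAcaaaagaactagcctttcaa
atpB at Pltd:54081-54130, minus strand: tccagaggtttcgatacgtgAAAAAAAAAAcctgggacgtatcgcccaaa
psbA at Pltd:1348-1391, minus strand: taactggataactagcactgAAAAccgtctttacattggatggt
Sequence was compared with level across the 70 protein-coding members that had a matched coding sequence and only 1 locus. The share of A correlated with mean TPM at Spearman rho = 0.246, and the length of the longest A run at rho = -0.037. With the log2 change in path1-4path2-1 the longest A run correlated at rho = -0.075. All points come from the same 24 libraries, and the values are a description.

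Windows of 250 bases before to 50 bases after the coding start were searched on both strands for the hexamers of the bacterial-type promoter. TTGACA was present in 14 of 82 member windows, or 17.1%, and in 20.2% of 129 windows of all plastid genes. TATAAT was present in 39 of 82 member windows, or 47.6%, and in 38.8% of the 129. Coding starts are not transcript starts, and a match is not a promoter.

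The total chloroplast share was highest in path1-4path2-1, at 1.67, 2.96 and 2.496% of counts in its 3 libraries, against 1.46, 1.69 and 1.60% in the control. The means were 2.37 ± 0.655% and 1.58 ± 0.114% (SD, n = 3 each), a ratio of 1.501. Replicates 2 and 3 of path1-4path2-1 lay above every control library, and replicate 1 lay within the control range. The triple combination had 1.87, 1.87 and 1.58%, where replicates 1 and 2 lay above the control and replicate 3 within it. In pat1-1path2-1 the values were 1.59, 1.76 and 1.73%, the first within the control range and the others above it.

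The other genotypes were at or below the control. In pat1-1 the share was 1.37, 1.24 and 1.08%, and in pat1-1path1-4 it was 1.40, 1.34 and 1.10%, with all 6 libraries below the lowest control library. In path1-4 it was 1.31, 0.888 and 1.42%, also below the control in all 3. In path2-1 it was 1.26, 1.74 and 1.10%, with replicate 2 above the control and the others below. In bulk tissue, fewer cells of a type and less RNA per cell cannot be told apart. The p-values below rest on 1 estimate of the spread between libraries within a genotype, shared by all 8 genotypes. The chloroplast share itself spread most in path1-4path2-1, with an SD of 0.655%.

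Mitochondrial genes, the other organelle's transcripts, did not follow the same order. Their share was 0.0259 ± 0.00296% of counts in the triple mutant and 0.0179 ± 0.000936% in the control, a ratio of 1.45. In path1-4path2-1 it was 0.0171 ± 0.00126%, a ratio of 0.957, and in pat1-1path2-1 it was 0.0137 ± 0.00108%, a ratio of 0.765 (SD, n = 3 each). Of 34 mitochondrial genes tested, 5 rose and 4 fell in the triple mutant, 0 rose and 7 fell in path1-4path2-1, and 1 rose and 19 fell in pat1-1path2-1. Over all genes tested, 22.8% rose and 22.6% fell in the triple mutant, 9.18% rose and 10.3% fell in path1-4path2-1, and 15.9% rose and 16.7% fell in pat1-1path2-1.

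**Figure D2:**
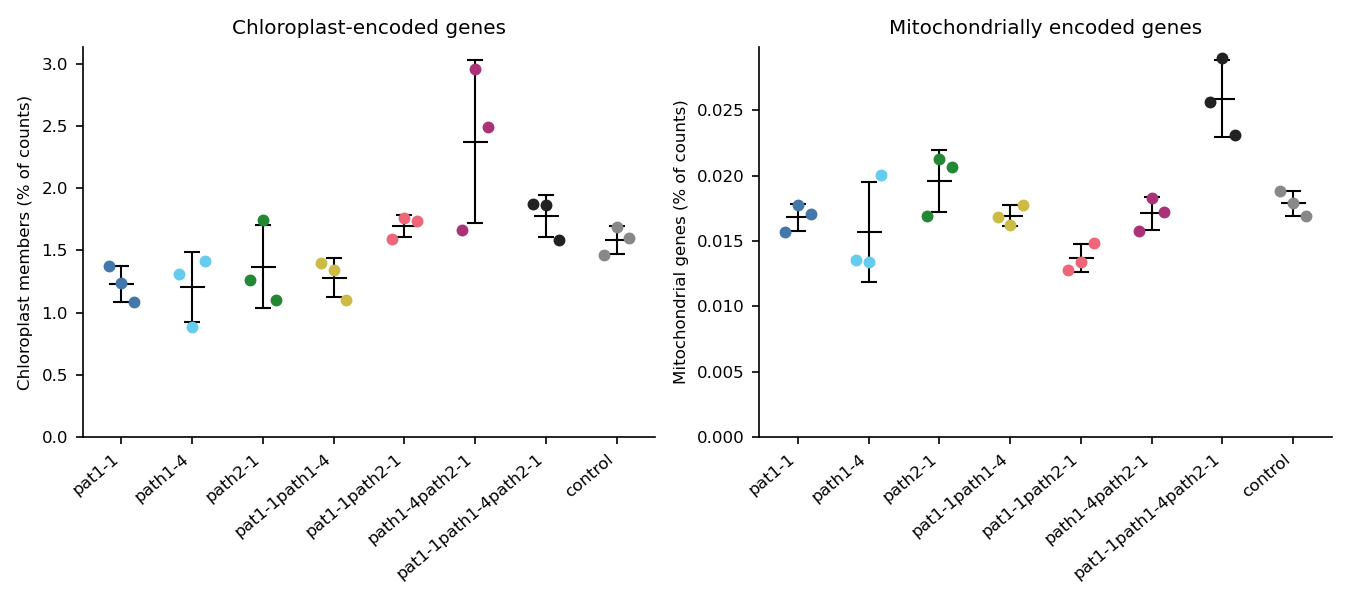
Share of all counts, in percent, taken by chloroplast genes (left) and mitochondrial genes (right) in each library (points), with mean ± SD per genotype. Chloroplast genes reached 2.96% in replicate 2 of path1-4path2-1, against 1.46% to 1.69% in the control.

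In path1-4path2-1 at least 1 gene of every chloroplast complex rose. Of 107 members tested, 65 rose and 1 fell in path1-4path2-1, with a median log2 fold change of 0.76. Over all 20346 genes tested, 9.18% rose and 10.3% fell, and the median of all genes lay between -0.023 and 0.012 in this and every other comparison made. The count depended on single libraries. Without path1-4path2-1 replicate 2, 28 rose and 2 fell, and without replicate 3, 41 rose and 1 fell. With only the path1-4path2-1 and control libraries in the fit, 34 rose and 1 fell.

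The ndh genes had the highest median log2 fold change of the complexes, 1.55, with 8 of 11 higher. Summed over the complex, their CPM were 1.41 times the control in path1-4path2-1, below the rpo genes at 1.89 times. Few genes set these sums. On average ndhJ and ndhK took 2.41 and 2.71% of chloroplast counts, where all ndh genes held 6.83%. The genes rpoB, rpoC1 and rpoC2 took 0.248, 0.0760 and 0.0840%, where the rpo genes held 4.21%, so most of the rpo sum is rpoA. The ndh share of chloroplast counts was 0.966 times that of the control. The gene ndhG, which encodes a membrane subunit of the complex (plastid positions 118377 to 118907 on the minus strand), had 6.90, 21.9 and 16.2 CPM in path1-4path2-1, against 3.13, 4.78 and 4.76 CPM in the control (log2 fold change 1.81 ± 0.310, adjusted p = 0.000371, edgeR's quasi-likelihood test). All 3 mutant libraries lay above all 3 control libraries, with replicate 1 the lowest of the mutant. The neighbouring subunit gene ndhE gave 5.77, 24.2 and 16.0 CPM in path1-4path2-1, against 3.17, 4.54 and 5.35 CPM in the control (log2 fold change 1.79 ± 0.387, adjusted p = 0.00268). For ndhH, a stromal subunit of the complex, the values were 80.5, 193 and 149.6 CPM in path1-4path2-1, against 37.3, 50.6 and 56.0 CPM in the control (log2 fold change 1.55 ± 0.277, adjusted p = 0.000538). These genes again separated the groups fully. The ndh genes with the highest TPM did not pass the test, since ndhJ had a log2 fold change of 0.04 ± 0.168 and ndhK one of 0.29 ± 0.132.

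Among photosystem I genes, 4 of 5 rose, with a median of 0.54. The iron-sulfur subunit gene psaC, which lies within the ndh cluster, had 3.20, 10.3 and 7.32 CPM in path1-4path2-1, against 1.75, 2.14 and 2.61 CPM in the control (log2 fold change 1.65 ± 0.317, adjusted p = 0.00102). The reaction centre gene psaA rose by less, with 11.0, 18.8 and 14.4 CPM in path1-4path2-1, against 8.73, 9.24 and 8.35 CPM in the control (log2 fold change 0.74 ± 0.167, adjusted p = 0.00388). The small subunit genes psaJ and psaI, highest in TPM, had log2 fold changes of 0.49 ± 0.0991 (adjusted p = 0.00153) and 0.54 ± 0.182 (adjusted p = 0.0433).

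Of 15 photosystem II genes, 8 rose, with a median of 0.88. The gene psbE, for the alpha subunit of cytochrome b559 (plastid positions 64071 to 64322 on the minus strand), had 12.7, 28.7 and 22.7 CPM in path1-4path2-1, against 6.81, 7.88 and 8.23 CPM in the control (log2 fold change 1.47 ± 0.266, adjusted p = 0.000616). The mutant libraries all lay above the control, and replicate 1 was again the lowest of them. The peripheral subunit gene psbZ had a log2 fold change of 1.32 ± 0.294 (adjusted p = 0.00345). The reaction centre gene psbD, for the D2 protein, reached 542, 1207 and 985 CPM in path1-4path2-1, against 395, 444 and 390.4 CPM in the control (log2 fold change 1.15 ± 0.314, adjusted p = 0.0132), and its adjusted p was 0.0728 without replicate 2. The D1 gene psbA had 36.4, 72.7 and 53.1 CPM in path1-4path2-1, against 36.2, 34.7 and 31.7 CPM in the control (log2 fold change 0.66 ± 0.168, adjusted p = 0.00920), and its adjusted p was 0.0809 without replicate 2. The most abundant psb transcript, psbM, had a log2 fold change of -0.20 ± 0.147 and did not pass.

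In the electron carrier between the photosystems, 5 of 6 pet genes rose. The small subunit gene petG had 1.01, 1.81 and 1.28 CPM in path1-4path2-1, against 0.585, 0.544 and 0.468 CPM in the control (log2 fold change 1.32 ± 0.302, adjusted p = 0.00397). The cytochrome f gene petA had a log2 fold change of 0.68 ± 0.156 (adjusted p = 0.00409). Of 6 ATP synthase genes, 4 rose. The gene for the membrane ring subunit, atpH, had 4.76, 7.44 and 7.15 CPM in path1-4path2-1, against 3.55, 4.19 and 3.40 CPM in the control (log2 fold change 0.78 ± 0.183, adjusted p = 0.00467). The abundant pair atpB and atpE had log2 fold changes of 0.37 ± 0.239 (adjusted p = 0.298) and 0.42 ± 0.193 (adjusted p = 0.137), short of the threshold. The Rubisco gene rbcL had 17.5, 34.5 and 25.9 CPM in path1-4path2-1, against 14.4, 14.5 and 13.5 CPM in the control (log2 fold change 0.87 ± 0.296, adjusted p = 0.0438). Its adjusted p was 0.192 without replicate 2.

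Among the genes of plastid gene expression, as in the complexes above, some members of each kind were higher and others not called. The log2 fold change was above 0 in all 11 rpl genes, 13 of 15 rps genes and all 4 rpo genes. Among ribosomal proteins of the large subunit 6 of 11 rose, and among those of the small subunit 10 of 15 rose and 1 fell. The gene rpl20 had 9.27, 23.4 and 18.8 CPM in path1-4path2-1, against 7.10, 7.61 and 8.35 CPM in the control (log2 fold change 1.14 ± 0.251, adjusted p = 0.00300). The gene rps7 (ATCG01240), of which the inverted repeat holds another copy, had a log2 fold change of 1.64 ± 0.407 (adjusted p = 0.00736). The single member that fell was rps14, which encodes a small-subunit protein (plastid positions 36938 to 37240 on the minus strand). It had 30.5, 26.2 and 23.7 CPM in path1-4path2-1, against 49.5, 44.5 and 41.6 CPM in the control (log2 fold change -0.75 ± 0.175, adjusted p = 0.00467). Of the polymerase genes 2 of 4 rose, among them rpoC2 at a log2 fold change of 1.23 ± 0.292 (adjusted p = 0.00542), whose adjusted p was 0.0513 with only the compared genotypes in the fit. Of 20 tRNA genes tested 9 rose, with trnH, beside psbA, at 0.98 ± 0.201 (adjusted p = 0.00183), and 1 of 4 rRNA genes rose.

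In the triple mutant fewer members passed. Of 107 tested, 26 rose and 4 fell, with a median log2 fold change of 0.36, where 22.8% of all genes tested rose and 22.6% fell. The share of members that rose was therefore near that of all genes. Without control replicate 1 the total of 30 called became 17, without triple replicate 2 it was 18, and with only the triple and control libraries fitted it was 50. The comparison shares its control libraries with that of path1-4path2-1, and the difference between both was not tested.

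By complex, 3 of 11 ndh genes rose and 1 fell in the triple mutant, 6 of 15 psb genes rose and 1 fell, 7 of 20 tRNA genes rose and 1 fell, and no psa, rpo or rRNA gene passed. The gene ndhH had 101, 113 and 105 CPM in the triple mutant, against 37.3, 50.6 and 56.0 CPM in the control (log2 fold change 1.15 ± 0.275, adjusted p = 0.00191). The psbZ gene had 48.0, 41.7 and 31.2 CPM in the triple mutant, against 17.4, 19.8 and 19.0 CPM in the control (log2 fold change 1.10 ± 0.294, adjusted p = 0.00434). Both separated the groups fully. A tRNA gene for glycine, trnG (ATCG00310), which lies near psbZ, gave the largest called change, with 1.38, 1.15 and 0.878 CPM in the triple mutant, against 0.292, 0.349 and 0.546 CPM in the control (log2 fold change 1.502 ± 0.390, adjusted p = 0.00357).

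Of the other members named in the triple mutant, psbE had a log2 fold change of 0.94 ± 0.268 (adjusted p = 0.00673), rpl20 one of 0.97 ± 0.252 (adjusted p = 0.00349) and rps18, a small-subunit ribosomal protein gene, one of 0.87 ± 0.221 (adjusted p = 0.00308). The psbA gene gave 51.5, 61.7 and 55.8 CPM in the triple mutant, against 36.2, 34.7 and 31.7 CPM in the control (log2 fold change 0.72 ± 0.168, adjusted p = 0.00151). For ndhG the log2 fold change was 0.93 ± 0.316 (adjusted p = 0.0209), and for petG it was 0.93 ± 0.313 (adjusted p = 0.0199), which became 0.0727 without control replicate 3. The 4 members that fell were psbM, rps14, ndhJ and trnS (ATCG00090). For psbM the values were 483, 431 and 408 CPM in the triple mutant, against 687, 700.3 and 735 CPM in the control (log2 fold change -0.68 ± 0.148, adjusted p = 0.000762). For rps14 they were 30.7, 33.5 and 25.98 CPM in the triple mutant, against 49.5, 44.5 and 41.6 CPM in the control (log2 fold change -0.59 ± 0.175, adjusted p = 0.00923), with an adjusted p of 0.0528 without triple replicate 3. The trnS (ATCG00090) gene for serine tRNA had a log2 fold change of -0.43 ± 0.132, with an adjusted p of 0.0556 without control replicate 2.

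**Figure D3:**
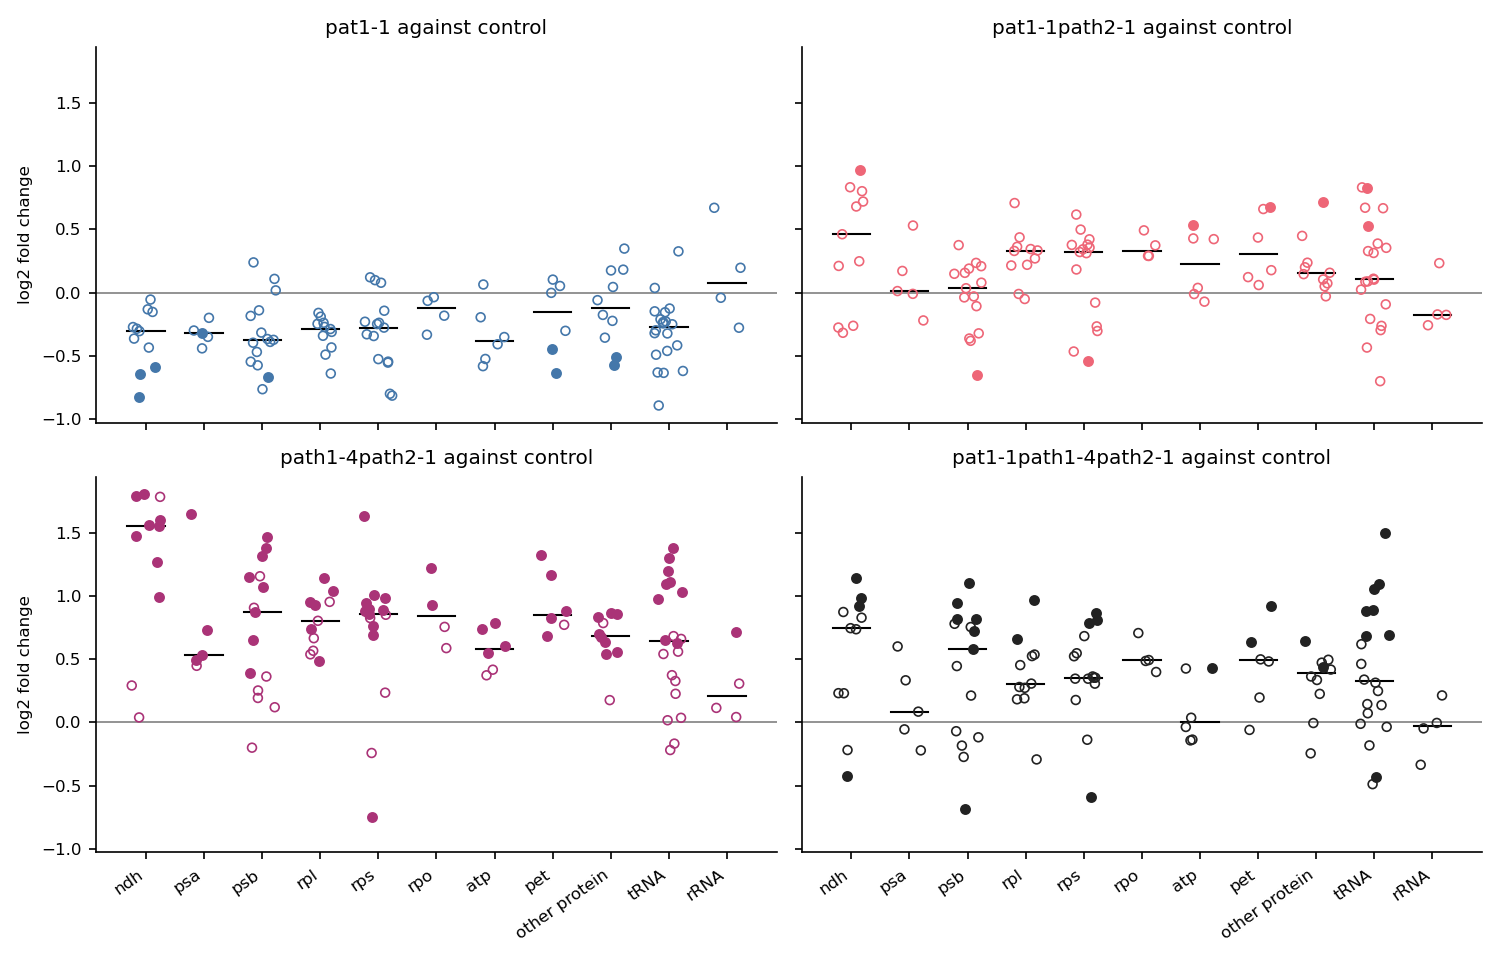
Log2 fold change against the control of each tested chloroplast gene, by complex, in pat1-1, pat1-1path2-1, path1-4path2-1 and the triple mutant. Filled points have an adjusted p under 0.05, and lines mark medians, which for ndh genes reached 1.55 in path1-4path2-1 and 0.75 in the triple mutant.

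Where pat1-1 stood alone or with path1-4, the called members were lower. In pat1-1, 0 members rose and 9 fell, with a median log2 fold change of -0.29, where 12% of all genes rose and 10.9% fell. The share of members that fell was thus near that of all genes, but none rose. The members that fell were ndhC, ndhK and ndhJ, which form 1 cluster, psbB, for a core antenna protein of photosystem II, psaJ, the cytochrome b6f genes petA and petL, ycf3, for an assembly factor of photosystem I, and cemA, for an envelope protein. The ndhJ gene had 285, 263 and 243 CPM in pat1-1, against 467, 499 and 438 CPM in the control (log2 fold change -0.83 ± 0.169, adjusted p = 0.00177). The ranges did not overlap. The psbB gene had 22.9, 27.6 and 23.6 CPM in pat1-1, against 41.5, 39.96 and 36.3 CPM in the control (log2 fold change -0.67 ± 0.140, adjusted p = 0.00215). Without pat1-1 replicate 3 the count of called members was 4, and without control replicates 2 or 3 it was 5 and 4, while only the pat1-1 and control libraries gave 20.

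In pat1-1path1-4, 0 members rose and 15 fell, with a median of -0.22, where 15.8% of all genes rose and 15.4% fell. Again the share that fell was near that of all genes and none rose. The count fell to 6 without pat1-1path1-4 replicate 3. It was 9 without replicate 1 and 9 without replicate 2, and without control replicates 2 or 3 it was 8 and 9. The trnC gene, for a cysteine tRNA, gave 0.804, 0.770 and 0.800 CPM in pat1-1path1-4, against 1.42, 1.55 and 1.83 CPM in the control (log2 fold change -1.02 ± 0.304, adjusted p = 0.0152). The rps14 gene had 29.98, 25.3 and 19.9 CPM in pat1-1path1-4, against 49.5, 44.5 and 41.6 CPM in the control (log2 fold change -0.85 ± 0.177, adjusted p = 0.00111). The ndhJ gene had a log2 fold change of -0.76 ± 0.169 (adjusted p = 0.00200). In all these genes the mutant libraries lay below the control, as did the mean chloroplast share.

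In pat1-1path2-1, 6 members rose and 2 fell, with a median of 0.20, where 15.9% of all genes rose and 16.7% fell. Both shares of members were below those of all genes. Without control replicate 1 the count was 3, without pat1-1path2-1 replicate 1 it was 4, and with only the compared genotypes it was 25. The ndhH gene rose, with 102, 91.3 and 89.4 CPM in pat1-1path2-1, against 37.3, 50.6 and 56.0 CPM in the control (log2 fold change 0.97 ± 0.275, adjusted p = 0.00997). A glycine tRNA gene, trnG (ATCG00100), had a log2 fold change of 0.83 ± 0.227 (adjusted p = 0.00831). The ycf1 (ATCG01130) gene, for a large protein of the inner envelope, had 2830, 2762 and 2413 CPM in pat1-1path2-1, against 1403, 1660 and 1815 CPM in the control (log2 fold change 0.71 ± 0.228, adjusted p = 0.0205). It shares bases with a partial copy in the inverted repeat. The other members that rose were atpH at 0.53 ± 0.187, petD, a cytochrome b6f subunit gene, at 0.68 ± 0.235, and trnP at 0.53 ± 0.161. The members that fell were psbM, at -0.65 ± 0.148 (adjusted p = 0.00210), and rps14, at -0.54 ± 0.175 (adjusted p = 0.0222).

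Neither single mutant of the other genes had a called member. In path1-4, 0 rose and 0 fell by edgeR, where 0.177% of all genes were called in either direction. The median log2 fold change was -0.21, and 3 members had an unadjusted p under 0.05. In path2-1, 0 were called, where 0.0197% of all genes were called in either direction. The median was -0.21, 21 members had an unadjusted p under 0.05, and DESeq2 called 1 lower.

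Averaged over the 4 pairs of genotypes that differ in 1 mutation, path2-1 was the mutation with the most members higher. With path2-1, 71 members were higher and 1, psbM, was lower, with a median of 0.43, where 10.6% of all genes rose and 12.1% fell. Against the control, path2-1 alone had 0 members called and a median of -0.21. The average therefore does not describe path2-1 on its own. For path1-4, 21 rose and 0 fell, with a median of 0.24, where 4.32% of all genes rose and 5.67% fell. That count moved with many single libraries. It was 10 without path1-4path2-1 replicate 2, 11 without replicate 2 of the triple mutant, and 12 without path1-4 replicate 1, path2-1 replicate 1, path2-1 replicate 3 or pat1-1path2-1 replicate 1. It was 13 without pat1-1 replicate 2, pat1-1 replicate 3, pat1-1path1-4 replicate 2, pat1-1path2-1 replicate 2 or path1-4path2-1 replicate 3. It was 40 without path1-4path2-1 replicate 1 and 35 without path2-1 replicate 2. For pat1-1, 3 rose and 16 fell, with a median of -0.06, where 27.9% of all genes rose and 29.4% fell.

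The interaction of 2 mutations is the log2 change in the double mutant minus the changes in both singles. A positive value means that the double mutant lies above their sum. For path1-4 with path2-1, 64 members were higher and 0 lower than the sum, with a median of 1.22, where 3.77% of all genes were higher and 4.45% lower. The count was 39 without path1-4path2-1 replicate 2, 41 without path1-4 replicate 2, 42 without path2-1 replicate 3, and 20 with only the compared genotypes fitted. The ribosomal genes rps19 and rpl22, neighbours in 1 cluster, had interactions of 1.89 ± 0.342 (adjusted p = 0.00251) and 1.73 ± 0.321 (adjusted p = 0.00305). For rps19 the values were 152, 317 and 264 CPM in path1-4path2-1, 109.9, 76.6 and 98.4 CPM in path1-4, 77.8, 130.2 and 66.9 CPM in path2-1 and 104, 144 and 149.6 CPM in the control.

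For pat1-1 with path2-1, 23 members were higher and 0 lower than the sum, with a median of 0.80, where 6.97% of all genes were higher and 7.77% lower. This count moved widely with single libraries, to 5 without path2-1 replicate 3 and to 47 without path2-1 replicate 2. It was 8 without control replicate 2, 10 without control replicate 3, 15 without pat1-1 replicate 2 and 7 without pat1-1 replicate 3. It was 8 without path2-1 replicate 1, 10 without pat1-1path2-1 replicate 1 and 14 without pat1-1path2-1 replicate 2. The ATP synthase genes atpA and atpF had interactions of 1.26 ± 0.280 (adjusted p = 0.00547) and 1.29 ± 0.304 (adjusted p = 0.00770). In pat1-1path2-1 against the control their log2 fold changes were 0.42 and 0.43, which did not pass. They were -0.53 and -0.41 in pat1-1 and -0.31 and -0.45 in path2-1, also not called. The gene trnP, for a proline tRNA, had an interaction of 1.29 ± 0.235 (adjusted p = 0.00134). For pat1-1 with path1-4 edgeR called 0 members, with 1 at an unadjusted p under 0.05, where 0.0442% of all genes were called in either direction.

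Along the chromosome, the genes of some clusters changed together in path1-4path2-1 and those of others did not. The ndhH to ndhD cluster, which holds 6 ndh genes and psaC, had 7 of 7 genes higher in path1-4path2-1, at log2 fold changes of 1.48 to 1.81. In the triple mutant 3 of the 7 rose, and all 7 lay between 0.60 and 1.15. The rpl23 to rpoA cluster of ribosomal genes had 8 of 11 higher in path1-4path2-1, with all 11 between 0.54 and 0.99, and 0 of 11 called by edgeR in the triple mutant. The rpoB to atpA stretch had 6 of 8 higher in path1-4path2-1, with all 8 between 0.55 and 1.23. In the triple mutant 2 of these 8 rose, and the 8 ranged from -0.04 to 0.79.

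Other clusters were split within themselves in path1-4path2-1. In the ndhC-ndhK-ndhJ cluster the log2 fold changes were 1.27 ± 0.205 for ndhC (adjusted p = 0.000207), 0.29 ± 0.132 for ndhK and 0.04 ± 0.168 for ndhJ. In the psaA-psaB-rps14 cluster they were 0.74 ± 0.167 for psaA, 0.45 ± 0.166 for psaB and -0.75 ± 0.175 for rps14, so the first gene rose and the last fell. In the psbB-psbT-psbH-petB-petD cluster they were 0.12 ± 0.136 for psbB, 0.19 ± 0.187 for psbT, 0.91 ± 0.343 for psbH, 0.83 ± 0.212 for petB and 1.17 ± 0.231 for petD, of which 2 passed. A difference in change between genes of 1 cluster was not tested.

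**Figure D4:**
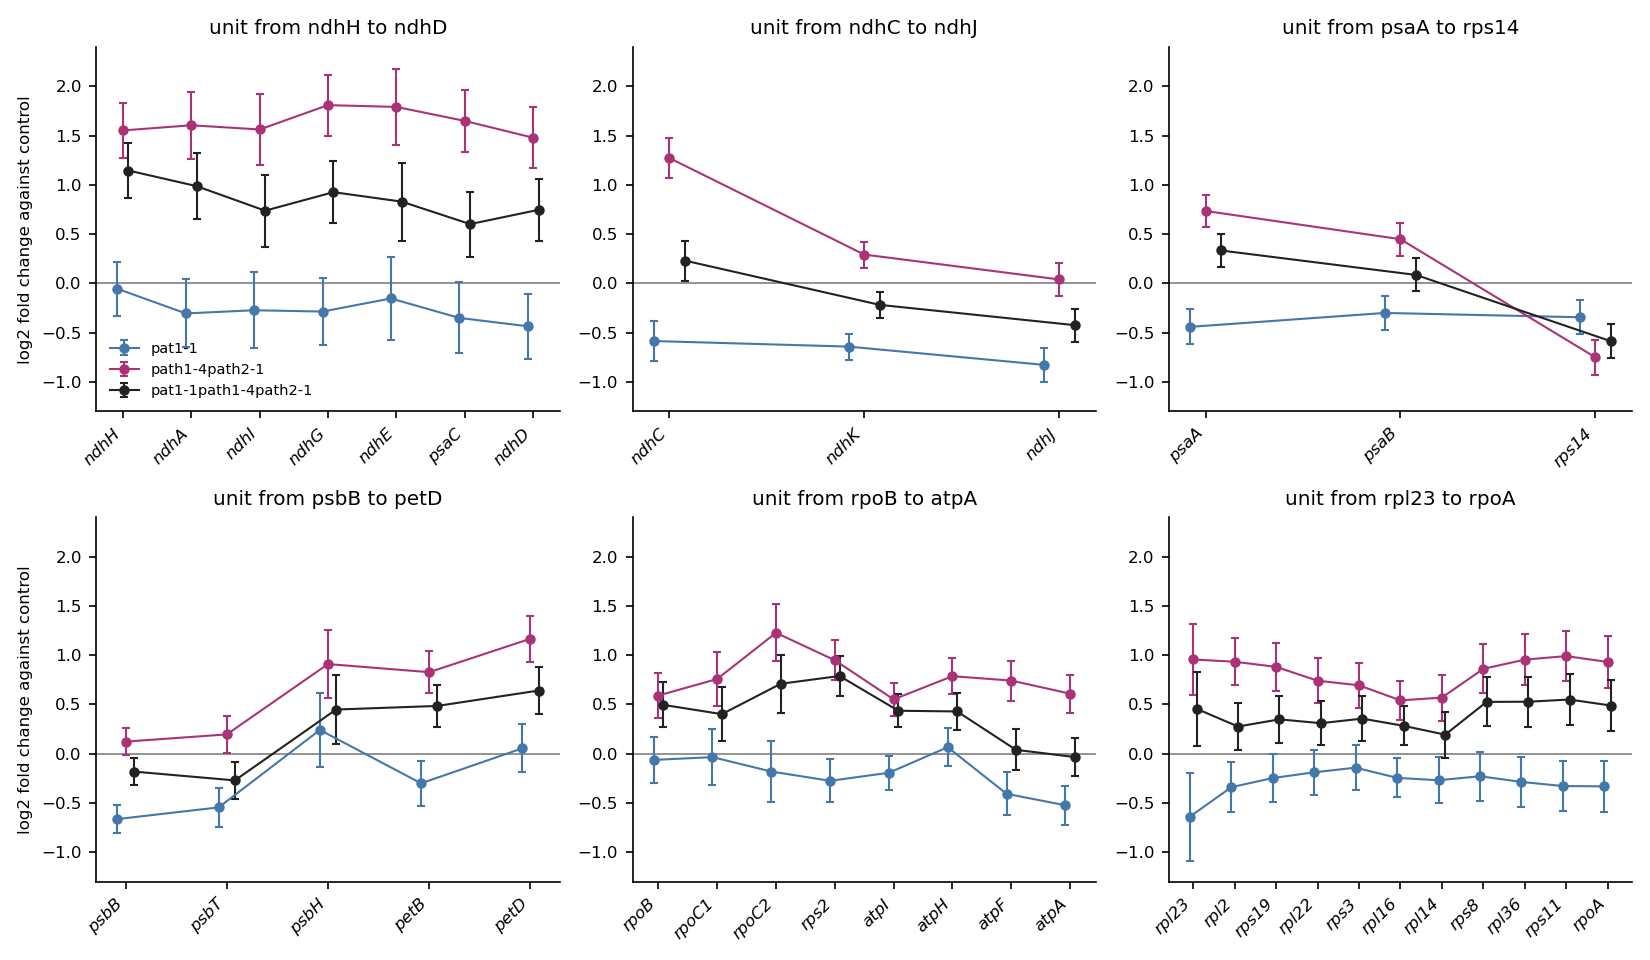
Log2 fold change ± SE against the control of each gene along 6 clusters, in transcript order, for pat1-1, path1-4path2-1 and the triple mutant. The ndhH to ndhD genes stand together between 1.48 and 1.81 in path1-4path2-1, and psaA at 0.74 stands apart from rps14 at -0.75.

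**Figure D5:**
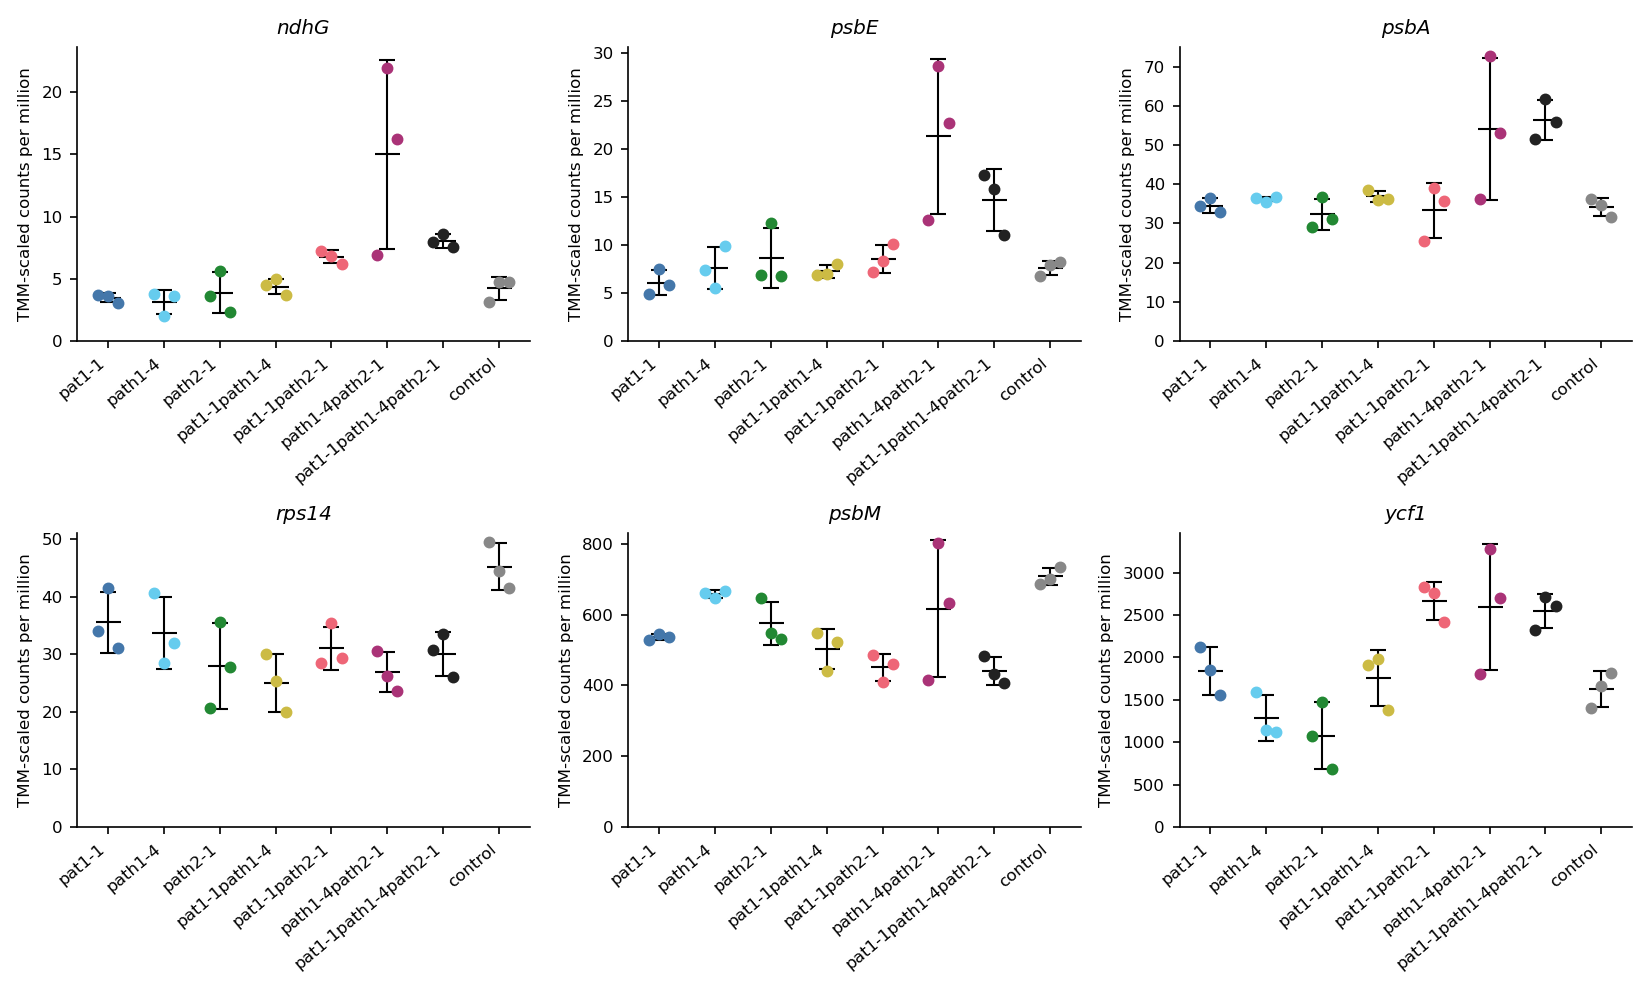
CPM of ndhG, psbE, psbA, rps14, psbM and ycf1 in each of the 24 libraries (points), with mean ± SD per genotype. Replicates 2 and 3 of path1-4path2-1 are the highest of all libraries for ndhG and psbE, and all control libraries lie above all mutant libraries for rps14.

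Across all genotypes, the members differed in their patterns. The rps14 gene had its highest level in the control, with 41.6 CPM in the lowest control library and 41.4 CPM in the highest mutant library, replicate 2 of pat1-1. Its single-mutant values were 34.0, 41.4 and 31.1 CPM in pat1-1, 40.6, 28.5 and 31.97 CPM in path1-4 and 20.6, 35.5 and 27.8 CPM in path2-1, none of which passed the test. The psbM gene had 415, 802 and 632 CPM in path1-4path2-1, spread on both sides of the control values of 687, 700.3 and 735 CPM, while all libraries of pat1-1path2-1, at 485, 408 and 459 CPM, lay below them.

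The psbA gene kept to a narrow range outside 2 genotypes. It had 34.3, 36.6 and 32.8 CPM in pat1-1, 36.4, 35.6 and 36.7 CPM in path1-4, 29.02, 36.7 and 31.2 CPM in path2-1, 38.6, 35.9 and 36.2 CPM in pat1-1path1-4 and 25.5, 38.9 and 35.7 CPM in pat1-1path2-1. These overlap the control, and only path1-4path2-1 and the triple mutant, given above, had a called change. The ndhG gene had 3.72, 3.63 and 3.05 CPM in pat1-1, 3.80, 2.00 and 3.59 CPM in path1-4, 3.64, 5.62 and 2.36 CPM in path2-1, 4.47, 4.97 and 3.70 CPM in pat1-1path1-4 and 7.23, 6.86 and 6.22 CPM in pat1-1path2-1. The last lay above the control in all 3 libraries but did not pass, at an adjusted p of 0.110. The ycf1 (ATCG01130) gene had 1810, 3278 and 2699 CPM in path1-4path2-1 and 2323, 2710 and 2610 CPM in the triple mutant, against 1403, 1660 and 1815 CPM in the control. In path2-1 it had 1068, 1473 and 682 CPM, with replicates 1 and 3 below the control range.

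Within the chloroplast counts the mix of transcripts also shifted. The atp genes took 39.8, 36.3 and 37.7% of chloroplast counts in the 3 libraries of path1-4path2-1 and 37.5, 34.4 and 32.5% in the triple mutant, against 42.4, 43.5 and 40.4% in the control. All 3 libraries were also below every control library in pat1-1, pat1-1path1-4 and pat1-1path2-1, with means of 37.1, 38.6 and 37.1%. In path1-4, 2 libraries lay below the control range and 1 above it, and in path2-1, 0 lay below and 2 above. The lower atp share thus also occurred where the total chloroplast share was below the control, in pat1-1 and pat1-1path1-4. That share is mostly atpB and atpE, which took 30.8 and 7.66% of chloroplast counts on average. The genes atpA, atpF, atpH and atpI took 0.133, 0.0364, 0.0280 and 0.141%. In path1-4path2-1 their mean CPM were 153, 169, 174 and 147% of the control, against 130% for atpB and 134% for atpE. The rpo genes, mostly rpoA by counts, took 4.50, 4.92 and 5.06% in the triple mutant and 3.85, 5.30 and 4.94% in path1-4path2-1. In the control they took 3.43, 3.78 and 4.00%. The psbM gene took 2.52 ± 0.0845% in the triple mutant and 2.63 ± 0.0787% in path1-4path2-1, against 4.45 ± 0.358% in the control (SD, n = 3 each). For ndhH the shares were 0.610 ± 0.0646% in the triple mutant and 0.589 ± 0.0795% in path1-4path2-1, against 0.298 ± 0.0402% in the control. These shares add up to a whole, so a rise of 1 gene lowers the others.

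The nuclear genes that serve these complexes were counted by list. Of 24 nuclear subunits of complexes that also hold chloroplast-encoded ones, 5 rose and 8 fell in the triple mutant, and 0 rose and 4 fell in path1-4path2-1. Of all genes 22.8% rose and 22.6% fell in the triple mutant, and 9.18% rose and 10.3% fell in path1-4path2-1, so the share of subunits that rose in the triple mutant was near that of all genes. All 5 photosystem I genes on the list fell in the triple mutant. The list has PSAE-1 at a log2 fold change of -0.51 ± 0.0788 (adjusted p = 2.12e-05), and the NDH subunit gene NdhM at a log2 fold change of 0.80 ± 0.106 (adjusted p = 3.87e-06). Of 9 sigma factors and phage-type polymerases of organelles, not all of which act in plastids, 3 rose in the triple mutant and 4 rose in path1-4path2-1. In pat1-1path2-1, 6 rose, and none fell in these 3 genotypes. Of all genes 22.8% rose in the triple mutant, 9.18% in path1-4path2-1 and 15.9% in pat1-1path2-1. The sigma factor gene SIGE had a log2 fold change of 0.56 ± 0.0703 (adjusted p = 2.15e-06) in the triple mutant, and the plastid polymerase gene SCA3 had a log2 fold change of 0.53 ± 0.0934 (adjusted p = 0.000109).

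Of 12 proteins bound to the bacterial-type polymerase, 1 rose and 2 fell in the triple mutant, and 0 rose and 1 fell in path1-4path2-1. Of 15 genes of plastid RNA processing and decay, 2 rose and 4 fell in the triple mutant, and 1 rose and 2 fell in path1-4path2-1. Of all genes 22.8% rose and 22.6% fell in the triple mutant, and 9.18% rose and 10.3% fell in path1-4path2-1. The RNA-binding endonuclease gene CSP41A had a log2 fold change of -0.47 ± 0.115 (adjusted p = 0.00226) in the triple mutant. Of 3 senescence genes, 2 rose in the triple mutant, where SAG13 had a log2 fold change of 1.15 ± 0.367 (adjusted p = 0.0141), and 0 rose in path1-4path2-1, a list too short to set against the 22.8% of all genes that rose in the triple mutant. The part of senescence in the chloroplast values was not tested. The 4 genes that in tobacco are read only by the phage-type polymerase and are members here, accD, rpoB, rpoC1 and rpoC2, had log2 fold changes in path1-4path2-1 of 0.83 ± 0.286, 0.59 ± 0.227, 0.76 ± 0.274 and 1.23 ± 0.292. By edgeR's test rpoB and rpoC1 did not pass, at adjusted p of 0.0730 and 0.0568. The 3 rpo genes among them lie in 1 cluster.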

How the data were processed

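RNA of 24 libraries was measured by RNA-seq. The authors deposited raw counts per gene and TPM. Alignment used STAR 2.5.1b to build TAIR10, per the submitters' processing notes. Counting tool, annotation and use of strand: not given in the sources used here. For all 26755 genes checked, 1 length per gene turned the counts into the TPM within 0.1%.

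Counts were fitted with edgeR 4.0.16 in R 4.3.3 (filterByExpr, TMM factors, 1 term per genotype, quasi-likelihood F test, two-sided) on all libraries. Of 37336 genes, 20346 were tested, with Benjamini-Hochberg adjustment over these in each of 13 comparisons and a threshold of 0.05. The comparisons were 7 genotypes with the control, 3 average effects over 4 pairs and 3 interactions. Errors after ± on log2 fold changes are standard errors, taken as the absolute change over the root of the F statistic. CPM are counts scaled with TMM factors. The pipeline was tested on simulated data. DESeq2 1.42.0 and the settings of the closing section were alternatives.

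Gene positions and sequences come from RefSeq TAIR10.1, where 96 members matched. Of these, 82 had a coding length within 6% of that behind the TPM and were not among the 17 members with more than 1 locus. Genes named were, within each complex, those with the highest TPM, smallest adjusted p in the triple mutant or largest called change, with psbA, rbcL, the 3 largest called changes each way per comparison, up to 3 per interaction and up to 3 per nuclear list. Genes of a cluster, the members called in pat1-1 and pat1-1path2-1 and the genes followed across all genotypes were named after their values were seen. Members and lists were chosen with earlier results of these data known. Depth sets the precision of low genes, and p-values cover only the spread between libraries.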

Additional observations from a re-analysis of the deposited data

Results flagged for a closer look

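The tested interactions stood out, since the effect of path2-1 differed with the other mutation present. With path1-4, 64 members lay above the sum of both single changes and 0 below it by edgeR. The interactions with the smallest adjusted p were 1.89 for rps19, 1.73 for rpl22 and 1.28 for trnP on the log2 scale. For trnP the value was 0.63, with an adjusted p of 0.0771, once trends with length and GC content were removed. With pat1-1, 23 members lay above the sum, with 1.29 for atpF, 1.26 for atpA and 1.29 for trnP. Both interactions use the same path2-1 and control libraries. The cause of these differences was not tested.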

How the results depend on the processing

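No log2 fold change of a named member changed direction past its threshold under any alternative run. Of the recomputed counts of called members 210 stayed within 1.5 times the value reported and 47 did not. Among recomputed shares 1110 were tallied as the same and 94 as moved, and for the total share 53 and 3. Recomputed changes of named members kept their side of the threshold in 1422 cases and lost the call in 356. The choice of libraries in the fit mattered most. With only the compared genotypes, the counts were 20 in pat1-1, 25 in pat1-1path2-1, 35 in path1-4path2-1, 50 in the triple mutant and 20 for the interaction of path1-4 with path2-1. DESeq2 called 1 member in path2-1. Without genes given to more than 1 locus, tRNA and rRNA genes, pat1-1path1-4 had 9 and pat1-1path2-1 had 5, and the chloroplast share of pat1-1path2-1 was 1.01 times the control. From deposited TPM that ratio was 0.976, on the other side of the control from the 1.07 found with the counts of all members. The ratio of the triple mutant from deposited TPM was 1.01. Leaving out 1 library at a time gave 4 to 7 called members in pat1-1, 6 to 11 in pat1-1path1-4, 3 to 8 in pat1-1path2-1, 30 to 84 in path1-4path2-1 and 17 to 28 in the triple mutant. For average effects the ranges were 15 to 28 for pat1-1, 10 to 40 for path1-4 and 60 to 83 for path2-1. For interactions they were 5 to 47 for pat1-1 with path2-1 and 39 to 80 for path1-4 with path2-1. Members with few counts, such as petG and the tRNA genes, are limited by depth. No paired analysis was possible because the columns carry numbers of their own and no replicate number is shared between genotypes.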
